A study of Mus musculus with 16 samples.

Results

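Mouse embryonic stem (ES) cells that had been kept in serum-free 2i/LIF medium were followed through the last interval of a course of exit from naive pluripotency, from 24 to 40 h. The 2 libraries at 40 h were set against the 2 libraries at 24 h, 4 of the 16 libraries of the series, for every expressed gene. Of 27179 genes in the deposited count table, 14288 passed the filter on low counts and were tested. 2i/LIF holds leukaemia inhibitory factor (LIF) and 2 kinase inhibitors. CHIR99021, at 3 uM, blocks GSK3 and thereby turns on Wnt signalling, and PD0325901, at 1 uM, blocks MEK upstream of ERK. For exit, these cells were seeded at least 24 h earlier, washed, and given the same serum-free base without the inhibitors and LIF, so that the 24 h and the 40 h cells differ by 16 h in that medium. Groups used for comparison were 2i/LIF cells at 0 h (still in maintenance medium) and at 12 h, and cells maintained in serum/LIF+2i, with 10% serum, LIF and the same inhibitors, at 24 and 40 h of exit. The serum/LIF+2i cells exited in a different base, a mix with glutamine-free DMEM to which 2 mM glutamine was added, so effects of the maintenance medium and of the exit base cannot be told apart. All cells were adapted from serum/LIF culture on gelatin for several passages. The labels name no cell line or clone, nor whether the 2 libraries of a group came from separate cultures, so p-values measure only the spread between these libraries, which may be technical.

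Naive pluripotency is the state of the preimplantation epiblast and rests on a network of transcription factors, among them Nanog, Esrrb, Klf4, Tfcp2l1, Tbx3 and Prdm14. When the inhibitors and LIF are removed, ERK signalling starts, this network is dismantled, and cells pass into a formative state with Otx2, Pou3f1, Fgf5 and the de novo DNA methyltransferases, from which the germ layers can be induced. General factors such as Pou5f1 are shared by both states. The title of the study concerns how pluripotent cells take up amino acids. A scarcity of amino acids is sensed by the kinase GCN2, which raises translation of the transcription factor ATF4, and ATF4 induces amino acid transporters, biosynthetic enzymes, tRNA synthetases and its own feedback regulators.

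Total counts of the 4 libraries ran from 6629047 to 7858428, and those of the whole series from 5931381 to 11142744. The correlation of log2 levels between the 2 libraries of a group was 0.9905 to 0.9948 over the 8 groups. No pair of libraries agreed within sampling noise. Relative to that noise (chi-square per degree of freedom), the serum/LIF+2i pair at 24 h agreed least, at 4.44 against 1.32 to 2.68 in the others. Ribosomal RNA genes held 1.72% and 0.746% of the counts in that pair. Every difference of the step between media uses these libraries. Levels are given as CPM, which is the count scaled to the size of its library, with each group's 2 libraries in turn. A gene was called where edgeR's quasi-likelihood test gave an adjusted p under 0.05, and "rose" and "fell" are used only of called genes. Fold changes are log2 values with their standard error (SE). The identity of the cells fitted the label, since Pou5f1 stood at 743 and 750 CPM at 24 h and at 635 CPM in both libraries at 40 h. Markers of other cell types are given further on. Whether the counting used strand is not given in the sources used here, so reads of overlapping genes cannot be told apart. By RefSeq positions on GRCm38.p6, 110 of the 559 genes that were listed or named by rule share bases with a further counted gene. Among those named here these are Sox2, Dnmt3a, Dnmt3l, Wnt3, Sox1, Ncam1, Pax6, Col4a1, Hnf4a, Plet1, Tcf7, Bmp4, Tet3, Slc7a3, Slc7a7, Slc6a9, Ppp1r15a, Gldc, Psph, Aars, Pdia4, Srebf2, Lss, Glb1, Pfkp, Cdk2, the 3 D cyclins, Nid2, Pcsk2os1, A730049H05Rik, Tmem54, Fam131b, Gfra1, Btbd17, Tbc1d16 and Vax2.

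Between 24 and 40 h the naive network fell to a small remainder, and only a part of the formative programme rose further. A neuronal kinesin, a semaphorin, the keratin gene Krt18, most glycolytic genes and most genes of the amino acid response rose. The laminin gene Lamb1 also rose, in a list of matrix and integrin genes of which 8 of 15 fell and 6 rose. In all, 6676 genes were called, 46.7% of those tested. Of these, 3178 (22.2%) rose and 3498 (24.5%) fell. At least 2-fold changes were seen in 1024 of the rising and 837 of the falling genes. The median size of a called rise was 0.60 and that of a called fall 0.47 on the log2 scale, while the median over all genes tested was 0.

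The sharpest rise among genes above 5 CPM was that of Kif1a, a kinesin that carries synaptic vesicle precursors along axons (GRCm38.p6, chr1:93015455-93102039). Kif1a was at 0.694 and 0.76 CPM at 24 h and at 32.9 and 30 CPM at 40 h. This is a 42.6-fold difference (log2 5.41, SE 0.25, adjusted p = 4.4e-40), and the gene had no count in either library at 12 h. Miat, a long noncoding RNA (chr5:112213228-112228948), went from 1.94 and 3.04 CPM to 45 and 51.8 CPM, 19.4-fold (log2 4.28, SE 0.18). Sema6a, a transmembrane semaphorin of axon guidance, went from 6.39 and 7.60 CPM to 94.7 and 81.1 CPM, 12.6-fold (log2 3.66, SE 0.13). Each of these genes was low in every 2i/LIF library up to 24 h, with means of at most 2.36 CPM at 0 and 12 h. The other named rises were Jakmip2 (20.2-fold), Igfbp4, which binds insulin-like growth factors (17.8-fold), Tmem54 (16.9-fold), Tmem59l (14.7-fold), Fndc3c1 (12.3-fold), Fut1, a fucosyltransferase (11.3-fold), Fam131b (11.3-fold), Gfra1, a receptor for GDNF (10.9-fold), and Btbd17 (10.5-fold).

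The sharpest fall among genes above 5 CPM was that of Jam2, a junctional adhesion molecule (chr16:84774123-84826380). Jam2 was at 80.9 and 81.3 CPM at 24 h and at 2.76 and 2.17 CPM at 40 h, 32.6-fold lower (log2 -5.02, SE 0.13, adjusted p = 5.2e-67). Its mean had already gone from 403 CPM at 0 h to 250 CPM at 12 h. Notum, which encodes a secreted deacylase that inactivates Wnt proteins, went from 97.5 and 95.7 CPM to 6.64 and 5.84 CPM, 15.4-fold lower (log2 -3.95, SE 0.11). The naive factors Prdm14, Tbx3 and Tcl1 were also among the largest falls. Others were 2210409E12Rik (23.6-fold), Khdc3 (21.9-fold), Inhbb, a subunit of activin B (17.1-fold), Gm19443 (16.5-fold) and the Ras relative Mras (15.9-fold).

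Some genes crossed the detection floor in this interval. At most 3 counts in both 24 h libraries were found for 161 of the genes called higher, 21 of them with no count in either. Ramp2, which pairs with receptors for adrenomedullin, had 1 and 3 counts at 24 h and 64 and 53 at 40 h, a ratio of 26.3 with a 95% counting interval of 9.99 to 98.0. Pde4b, a cAMP phosphodiesterase, had 1 count in each library and then 41 and 25, a ratio of 29.6 (7.89 to 250). The other named genes of this kind, Fermt1 (23.8), Rem2 (13.9), Kcnip3 (13.5) and Pcsk2os1 (11.9), had lower ratios than both. In the other direction, 111 genes called lower had at most 3 counts in both 40 h libraries, 20 with none. Aox3, an aldehyde oxidase, went from 38 and 39 counts to 1 and 0, a ratio of 85.7 (14.9 to 3430). Ubd (18.6), the haematopoietic GTPase Rac2 (13.2), 2310003L06Rik (12.9) and A730049H05Rik (10.0) were the others named. These intervals cover counting error only.

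Of 15 naive pluripotency genes, 14 fell and the median log2 change was -2.70, against 0 over all genes tested. Their summed level was 2070 and 2030 CPM at 24 h and 508 and 506 CPM at 40 h. Nanog stood at 148 and 144 CPM at 24 h and at 29.1 and 26.6 CPM at 40 h, 5.23-fold lower (log2 -2.39, SE 0.06, adjusted p = 3.2e-64). Esrrb, an orphan nuclear receptor of the network, went from 328 and 330 CPM to 39.6 and 35.2 CPM, 8.78-fold lower (log2 -3.13, SE 0.05). Tbx3 went from 21.9 and 26.3 CPM to 1.38 and 1.49 CPM, 16.6-fold lower (log2 -4.05, SE 0.21). In each case the 2 libraries of a time lay close together and far from those of the other time. Prdm14, which represses FGF receptor signalling and de novo methylation in ES cells, was 18.1-fold lower, Tcl1 15.5-fold, Nr0b1 12.1-fold, Nr5a2 8.28-fold, Klf4 6.73-fold, Tfcp2l1 6.49-fold and Zfp42 (Rex1) 6.41-fold. Falls of Klf5 (3.00-fold), Klf2 (2.47-fold), the growth factor gene Fgf4 (2.10-fold) and the surface protein gene Pecam1 (1.84-fold) were smaller.

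Dppa3, which encodes Stella, was the naive gene that was not called. It was at 9.58 and 10.0 CPM at 24 h and 10.6 and 10.5 CPM at 40 h (log2 0.11, SE 0.18), after a mean of 76.4 CPM at 0 h. Nr0b1 and Zfp42 had a different course. Nr0b1 had a mean of 118 CPM at 0 h and 440 CPM at 12 h, and was still at 323 and 316 CPM at 24 h before it went to 28.1 and 24.6 CPM. Zfp42 had means of 335 and 392 CPM at 0 and 12 h and 307 and 300 CPM at 24 h, against 46.1 and 48.8 CPM at 40 h. For both, the larger part of the fall from the 12 h level came between 24 and 40 h.

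The Nanog promoter is shown because it holds the composite of an octamer and a HMG-box motif, the kind of element bound by a POU factor together with a SOX factor. This octamer and HMG-box composite, with 1 free base between its 2 parts, was searched on both strands in the 250 bases upstream of each RefSeq start site (GRCm38.p6), and 2 of 32851 promoters held it (0.00609%), both assigned to Nanog. The stretch printed is chr6:122707371-122707470, plus strand, 5′ to 3′, with the composite in capitals.
Nanog: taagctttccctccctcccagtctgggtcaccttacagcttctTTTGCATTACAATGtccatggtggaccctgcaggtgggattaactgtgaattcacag
The motif ends 61 bases before the start site. Pou5f1 and Sox2, which encode a POU and a SOX factor, fell by 0.23 and 1.19 on the log2 scale in this step. Whether either binds here was not tested, and a match of letters is a description, not a site. The letters TCAAGGTCA, a binding motif of Esrrb, were in the window of 0 of the 10 naive genes with a promoter in the table and of 0.387% of all promoters. That says only that these letters are not in these windows.

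Of 14 genes shared by naive and formative cells, 11 fell and 1 rose, with a median of -0.38. Sox2 went from 321 and 328 CPM to 142 and 141 CPM, 2.29-fold lower (log2 -1.19, SE 0.05). Dppa5a, an RNA-binding protein gene, fell by 1.03, Dppa2 by 0.60, Dppa4 by 0.52, Sall4 by 0.44 and L1td1 by 0.44 on the log2 scale. Falls of Trim71 (-0.32), Rif1 (-0.25) and Pou5f1 (-0.23) were small. Lin28a, which blocks maturation of let-7 microRNAs, rose against the rest, from 437 and 446 CPM to 834 and 797 CPM (log2 0.89, SE 0.04). Zfp281 (-0.04) and the Nodal co-receptor gene Tdgf1 (0.10) were not called. Tdgf1 was called higher with other scalings of the libraries (0.12 with DESeq2 size factors). Utf1 (-0.12) was called, but not with DESeq2 size factors (-0.10, adjusted p = 0.069) or without either replicate at 24 h or replicate 2 at 40 h (-0.08, -0.14 and -0.06).

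Formative genes did not move together: of 17, 10 rose and 4 fell, and their median was 0.46. Lin28b, the paralogue of Lin28a, went from 28 and 25.5 CPM to 87.0 and 95.3 CPM, 3.39-fold (log2 1.76, SE 0.09). Pou3f1 (Oct6), a POU factor of the formative epiblast, went from 84.0 and 77.2 CPM to 253 and 212 CPM, 2.89-fold (log2 1.53, SE 0.08). Dnmt3b, a de novo DNA methyltransferase, went from 1110 and 1100 CPM to 2340 and 2110 CPM, 2.01-fold (log2 1.01, SE 0.04). All libraries at 40 h were above those at 24 h for these genes. Sall2 (0.85), Sox4 (0.77), Sox11 (0.64), Sox3 (0.51), Dnmt3a (0.46) and Tead2 (0.36) also rose.

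Otx2, the homeobox factor that opens the formative programme, had reached 84.0 and 78.9 CPM at 24 h from a mean of 0.552 CPM at 0 h, and was at 64.8 and 60.1 CPM at 40 h (log2 -0.38, SE 0.07, adjusted p = 6.7e-06). Dnmt3l, the cofactor of the de novo methyltransferases, went from 419 and 426 CPM to 251 and 307 CPM (log2 -0.60, SE 0.09). Both had thus passed their highest level among the 4 sampled times. The smaller falls of Tcf15 (-0.48) and Foxd3 (-0.26) were called, but not without replicate 1 at 24 h (-0.22 and -0.12) or without replicate 2 at 40 h (-0.30 and -0.12). Fgf5 had 8.33 and 14.3 CPM at 24 h and 20 and 14.4 CPM at 40 h, and the 2 times nearly touched. Its rise (0.63, SE 0.18) was called, but not without replicate 1 at 24 h (0.29), without replicate 1 at 40 h (0.37) or by DESeq2 (adjusted p = 0.13). Sox3 was not called without replicate 1 at 40 h (0.32). Zic5 (-0.18), Grhl2 (-0.17) and Zic2 (-0.16) were not called. Zic2 was called lower without replicate 1 at 40 h (-0.26), and so was Grhl2 (-0.23).

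**Figure D1:**
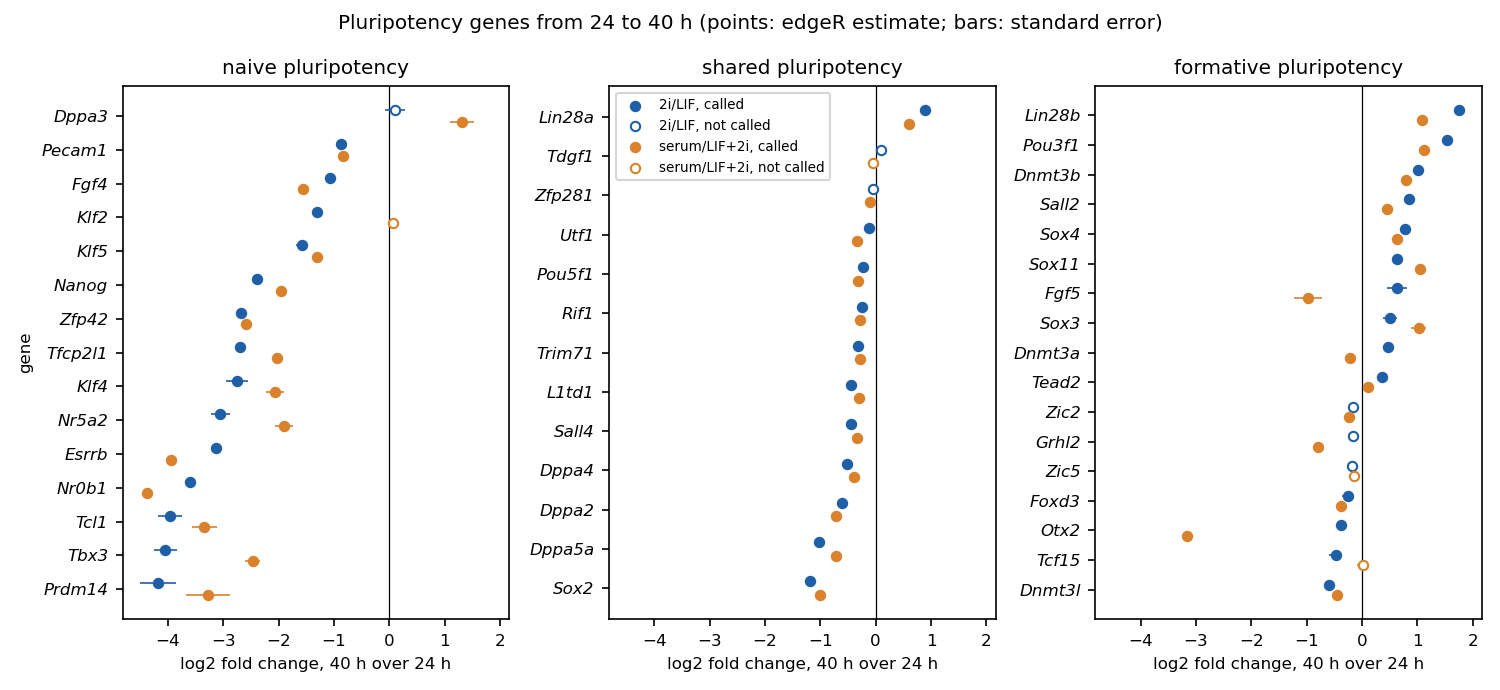
Log2 fold change from 24 to 40 h (x axis) for the naive, shared and formative genes reported here (y axis), in 2i/LIF cells (blue) and serum/LIF+2i cells (orange); points are edgeR estimates, bars their standard error, filled points are called. In 2i/LIF, 14 of 15 naive genes lie below 0 and Dppa3 at 0.11, while formative genes range from Lin28b at 1.76 to Dnmt3l at -0.60.

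The first 12 h of exit offer a contrast with no library in common, although they span 12 h and this step 16 h. In the first 12 h, 6382 genes were called (44.7%), of which 2999 rose (21.0%) and 3383 fell (23.7%). The difference between both intervals was itself called for 6468 genes (45.3%), with 3059 (21.4%) more positive and 3409 (23.9%) more negative in the later one. Of the genes that rose in the first 12 h, 1120 fell between 24 and 40 h, which is 37.3% of the former and 32.0% of the latter. A further 705 rose again (23.5% of the early rises). Of the genes that fell first, 986 fell again (29.1%) and 713 rose (21.1% of the early falls and 22.4% of the later rises). Over all genes tested, 22.2% rose and 24.5% fell in the later step, so the shares that rose were near that of all genes. Across genes, which are not independent replicates, the log2 changes of both intervals had a Pearson correlation of -0.04 and a Spearman correlation of -0.02 over 14288 genes. The 12 to 24 h step had 5021 called genes (35.1%), 2486 of them higher (17.4%) and 2535 lower (17.7%). It shares the 24 h libraries with the later step, so only its own values are given.

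Genes that rose first and fell later included Inhbb. Inhbb had means of 3.66 and 30.8 CPM at 0 and 12 h, 21.2 and 21.7 CPM at 24 h, and 1.25 and 1.22 CPM at 40 h (log2 -4.10, SE 0.24). Its 40 h level lay below that of 0 h, so the early rise was more than undone. Gm19443, the homeobox gene Vax2 (log2 -3.92), Catip (-3.88) and the SOX factor Sox21 (-3.62) followed the same order. The opposite order was led, by the size of the later rise, by Kif1a. Its early fall lay near the floor, from 0.517 and 0.911 CPM at 0 h to no count at 12 h (log2 -5.56, SE 1.5). Slc16a10, a transporter of aromatic amino acids, had means of 9.75 and 1.08 CPM at 0 and 12 h, 2.08 and 0.912 CPM at 24 h, and 13.7 and 16.3 CPM at 40 h (log2 3.28, SE 0.26). Soat1, which esterifies cholesterol, had means of 13.5 and 7.93 CPM at 0 and 12 h, 20.4 and 16.9 CPM at 24 h, and 122 and 138 CPM at 40 h (log2 2.80, SE 0.09). Its 40 h libraries lay far above all others. Lad1, a basement membrane anchor protein gene (2.61), Tbc1d16, a Rab regulator gene (2.58), and Cpeb1, which controls cytoplasmic polyadenylation (2.44), were the others named.

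All 14 shared genes had risen in the first 12 h (median 0.60), and for all 14 the difference between the intervals was called, with the later change lower. All 17 formative genes had risen in the first 12 h (median 1.76), and the later change was called more negative for 15 and more positive for 2. Of the naive genes, 11 had fallen and 3 had risen first (median -0.50), and 13 had a more negative change later.

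**Figure D2:**
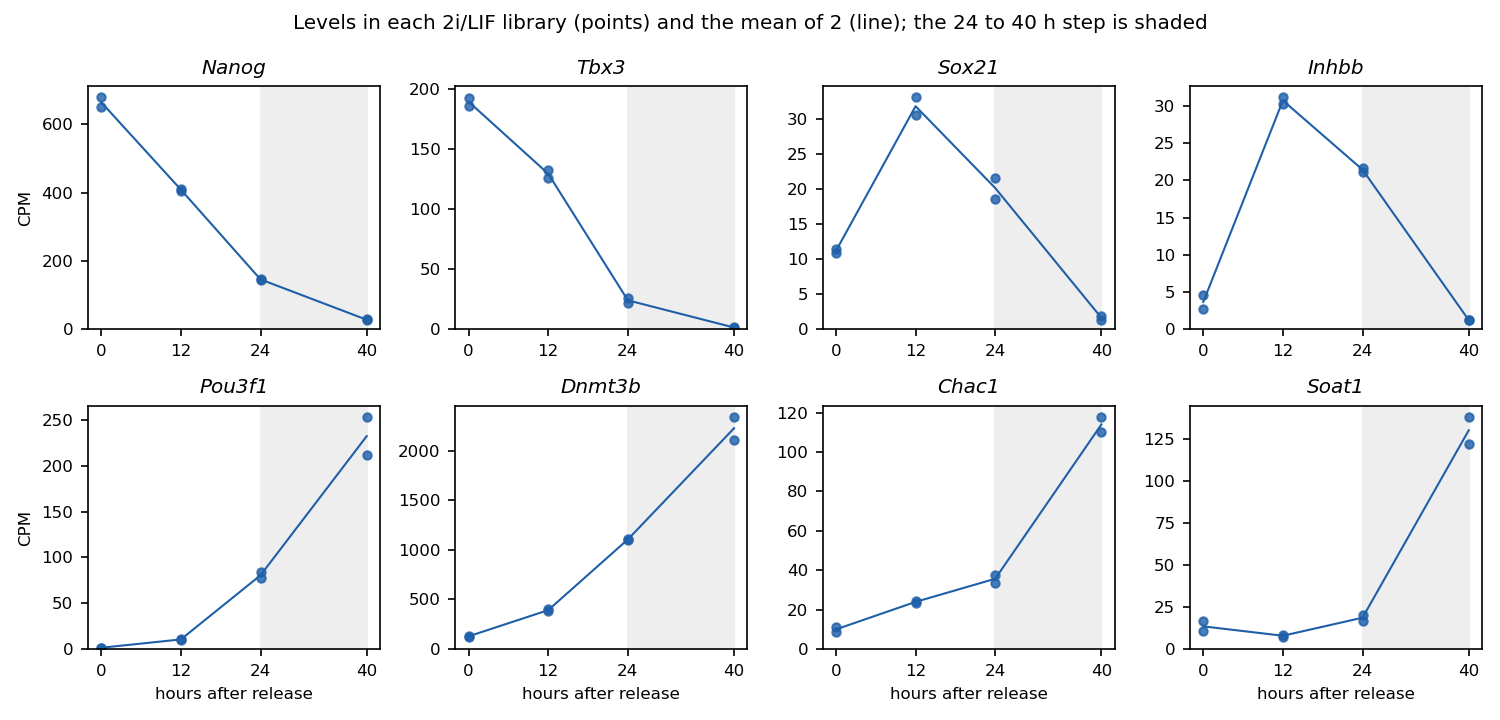
CPM (y axis, starting at 0) against hours after release (x axis) for 8 genes in the 2i/LIF cells; points are libraries, lines join the means of 2, and the 24 to 40 h step is shaded. Inhbb peaks at 12 h (mean of 30.8 CPM), Nanog and Tbx3 fall at every step, and Soat1 stays at or below 20.4 CPM until 24 h and is at 122 and 138 CPM at 40 h.

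Genes of other lineages stayed low or moved in both directions. Their counts stand beside 22.2% of all genes tested that rose and 24.5% that fell. Of 14 primitive streak genes, 5 were tested, 2 rose and 1 fell (median 0.10), and 6 had at most 3 counts in all 4 libraries. Wnt8a, a Wnt ligand of the streak, rose from 4.58 and 5.62 CPM to 15.3 and 16.3 CPM (log2 1.63, SE 0.20). The second was Wnt3, with 1 and 0 counts at 24 h and 5 in each library at 40 h, a ratio of 8.98 (95% counting interval 1.28 to 390), which was not called without any 1 of the 4 libraries or by DESeq2. Eomes fell (-0.88), but was not called by DESeq2 or without replicate 1 of either time (-0.66 and -0.56). The streak gene T was at 0.278 and 0.456 CPM at 24 h and at 0.626 and 0.136 CPM at 40 h. Of 15 early neural genes, 8 were tested, 3 rose and 2 fell (median 0.33). Nes, the intermediate filament of neural progenitors, rose from 19.4 and 18.4 CPM to 48.2 and 41.6 CPM (log2 1.25, SE 0.11), and Sox1, an early neural SOX factor, from 11.8 and 12.3 CPM to 19.3 and 26.0 CPM (log2 0.90, SE 0.14). Sox21 fell 12.3-fold. Ncam1 rose (0.55) and Pax6 fell (-0.55), but neither was called by DESeq2. Ncam1 was not called without replicate 1 at 24 h (0.46) or replicate 2 at 40 h (0.54), nor Pax6 without either of these (-0.33 and -0.40).

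Of 12 primitive endoderm genes, 7 were tested, 2 rose and 2 fell. The median of 0.43 ranged from -0.39 to 1.03 when single libraries were left out. Dab2, an endocytic adaptor, rose from 1.11 and 0.608 CPM to 7.89 and 8.97 CPM (log2 3.25, SE 0.36), and the collagen gene Col4a1 from 7.64 and 11.2 CPM to 19.2 and 19.0 CPM (log2 1.03, SE 0.16). Lama1 (-1.07) and Hnf4a (-1.98) fell, while Gata6 and Sox17, which define that lineage, did not pass the filter. Among 8 trophectoderm genes, 6 were tested, 2 fell and 1 rose, with a median of -0.72 that ranged from -1.39 to 0.24 over left-out libraries. Plet1 fell by 1.89 and Tfap2a by 1.70. Cdx2, with 0 and 1 counts and then 6 and 3, had a ratio of 8.08 (1.12 to 354), not called by DESeq2 or without replicate 1 of either time.

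Markers of fibroblasts, which can serve as feeder cells, were tested for 5 of 10 genes, and 3 were called higher (median 1.87, range 1.16 to 2.88 over left-out libraries). Their summed level was 6.11 and 6.69 CPM at 24 h and 23.7 and 16.6 CPM at 40 h. Dcn, a small proteoglycan, went from 1.53 and 1.06 CPM to 13.4 and 8.97 CPM (log2 3.09, SE 0.32), whereas Col1a2, with no count at 24 h and 10 and 7 counts at 40 h, was at least 2.55-fold higher against a floor of 3 counts per library. Col1a1 (1.87) was the third, but was not called without replicate 1 of either time (1.16 and 1.36) or by DESeq2. Col3a1, Lum, Postn, Twist2 and Fap did not pass the filter, and 3 of the 10 had no count in all 4 libraries. The part of such cells in the matrix genes described further on was not tested, and in bulk RNA fewer cells of a type and less RNA per cell cannot be told apart. Of 8 tested two-cell-like genes, which mark a rare totipotent-like state, none was called in this step by edgeR, none by DESeq2, and none had an unadjusted p under 0.05. Their summed level was 27.6 and 33.1 CPM at 24 h and 23.2 and 34.2 CPM at 40 h. Several of them, such as the Zscan4 and Tcstv genes, are near-identical copies whose counts are uncertain.

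Germline genes, many of which are held silent by DNA methylation, were split, with 6 of 12 higher and 3 lower (median 0.52, and -0.04 among members above 5 CPM). Dazl, an RNA-binding protein gene of germ cells, went from 46.4 and 48.2 CPM to 13.7 and 14.8 CPM, 3.32-fold lower (log2 -1.73, SE 0.11). Tuba3a (-0.96) and Hormad1 (-0.52) fell as well. Mael, of the piRNA pathway, went from 10.8 and 9.12 CPM to 27.1 and 23.5 CPM (log2 1.34, SE 0.14), and Tdrd1 (2.07) and Taf7l (1.44) rose from at most 1.98 CPM. Of 6 genes for maintenance and removal of DNA methylation, 4 fell and 1 rose. Tet2, one of the enzymes that oxidise methylcytosine, went from 173 and 168 CPM to 60.1 and 76.4 CPM (log2 -1.33, SE 0.11), Tet1 from 994 and 1010 CPM to 639 and 652 CPM (log2 -0.64, SE 0.04), and Tet3 in the other direction from 18.5 CPM in both libraries to 41.0 and 40.9 CPM (log2 1.14, SE 0.11). The maintenance genes Uhrf1 (-0.51) and Dnmt1 (-0.25) fell.

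Signalling targets were grouped by pathway, and their counts stand beside 22.2% of all genes tested that rose and 24.5% that fell. Of 15 ERK response genes, 5 rose and 7 fell (median 0.01), after 11 had risen and none had fallen in the first 12 h. The feedback phosphatases Dusp6 (0.75, SE 0.06) and Dusp4 (0.73, SE 0.09) and the inhibitor gene Spred1 (0.41) rose. The ETS factors Etv5 and Etv4 fell by 0.45 each and the inhibitor gene Spry4 by 0.52. Dusp6 was at 90.9 and 86.9 CPM at 24 h and at 144 and 156 CPM at 40 h, Spry4 at 63.0 and 65.2 CPM and then 46.5 and 43.1 CPM. Negative feedback genes of the same pathway therefore moved in both directions.

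Wnt response genes were likewise split, with 4 of 11 higher and 3 lower, and a median of 0.63 that ranged from 0 to 0.60 over left-out libraries. The transcription factors rose, Lef1 from 58.0 and 59.7 CPM to 118 and 105 CPM (log2 0.92, SE 0.07) and Tcf7 by 0.63 (SE 0.07), as did the inhibitor gene Nkd1 (1.53). The feedback genes Notum and Axin2 fell, the second from 15.3 and 14.6 CPM to 7.26 and 6.52 CPM (log2 -1.11, SE 0.17), after a mean of 228 CPM at 0 h. Cdx1, with 7 and 5 counts at 24 h and 1 in each library at 40 h, had a ratio of 6.68 (95% counting interval 1.49 to 61.4) and was not called without replicate 1 at 24 h or either replicate at 40 h. Of 9 LIF and STAT3 genes, 3 rose and 4 fell. The receptor genes fell, Lifr from 87.9 and 90.4 CPM to 26.2 and 23.4 CPM (log2 -1.84, SE 0.08) and Il6st by 0.91, with Stat3 itself (-0.78). The targets Pim1 (0.38), Gbx2 (0.29) and Socs3 (1.23) rose, the last from 1.94 and 1.82 CPM to 4.38 and 4.48 CPM, against a mean of 58.0 CPM in LIF.

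Nodal pathway genes were called higher for 5 and lower for 5 of 13. Only 2 were called higher by DESeq2, with 5 lower, and 3 higher without replicate 1 at 24 h. The ligand Nodal (-0.66), its relative Gdf3 (-0.46), the processing enzyme Pcsk6 (-0.84), the antagonist Lefty2 (-0.61) and the inhibitory Smad7 (-1.36) fell, whereas Skil, a SMAD corepressor, rose from 200 and 203 CPM to 377 and 369 CPM (log2 0.89, SE 0.04). For BMP signalling, 4 of 10 fell and 2 rose. The target Id3 went from 23.5 and 22.3 CPM to 8.14 and 5.57 CPM (log2 -1.73, SE 0.17), Id1 fell by 1.45 and the ligand Bmp4 by 2.51. The rises of Id2 (0.70) and the receptor gene Bmpr1a (0.17) were not called without replicate 1 at 40 h (0.65 and 0.14) or by DESeq2, Id2 also not without replicate 2 at 24 h (0.66), and Bmpr1a not without replicate 1 at 24 h (0.13). The list median of -0.39 ranged from -0.86 to -0.02 over left-out libraries. Notch genes mostly rose, 7 of 12 against 1 that fell, which DESeq2 did not call (median 0.75). The receptor Notch3 went from 53.7 and 44.1 CPM to 101 and 104 CPM (log2 1.07, SE 0.07) and Notch2 by 0.70, with the ligands Dll1 (0.86), Jag2 (0.76) and Dll3 (1.19). Lfng, which modifies the receptors, rose by 1.54 but was not called without replicate 1 at 40 h (1.03). Of 11 retinoic acid genes, 2 rose and 1 fell (3 fell without replicate 2 at 40 h): the binding protein gene Crabp2 rose by 0.86, Hoxb1 had 1 and 2 counts and then 13 and 37 (ratio 15, 4.84 to 75.0), and the receptor gene Rarg fell by 0.24.

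Amino acid response genes stood out by their count, with 17 of 20 higher and 2 lower and a median of 0.86. The promoters of 5 of them are shown because they hold the C/EBP-ATF composite, TTGCATCA, the kind of element bound by ATF4 with a C/EBP factor. It was searched on both strands in the 250 bases upstream of RefSeq start sites. It was found for 5 of the 18 members with a promoter in the table, for 0.791% of 32851 promoters, for 0.918% of 27025 genes and for 0.658% of the 10940 tested genes with a promoter. Among the members of the other lists it was found for Slc7a11, Slc7a7, Aars, Tars, Herpud1 and Crabp1. Each line gives 100 bases, 5′ to 3′ on the strand of the gene, with the composite in capitals; in Pycr1 it lies in reverse orientation.
Chac1 (chr2:119351003-119351102, plus strand): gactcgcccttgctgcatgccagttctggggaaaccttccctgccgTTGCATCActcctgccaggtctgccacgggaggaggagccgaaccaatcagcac
Atf3 (chr1:191183390-191183489, minus strand): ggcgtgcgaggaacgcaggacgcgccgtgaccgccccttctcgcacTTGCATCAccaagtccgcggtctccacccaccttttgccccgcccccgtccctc
Vldlr (chr19:27216774-27216873, plus strand): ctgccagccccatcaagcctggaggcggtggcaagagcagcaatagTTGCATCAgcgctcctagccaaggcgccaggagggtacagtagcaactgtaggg
Nupr1 (chr7:126625527-126625626, minus strand): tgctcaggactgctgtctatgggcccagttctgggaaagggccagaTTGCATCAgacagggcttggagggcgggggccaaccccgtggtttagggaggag
Pycr1 (chr11:120643798-120643897, minus strand): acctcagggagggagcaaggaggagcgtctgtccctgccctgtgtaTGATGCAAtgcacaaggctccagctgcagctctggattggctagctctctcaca
The composite ended 185 bases before the start site in Chac1, 192 in Vldlr, 102 in Atf3 and in Nupr1, and 95 in Pycr1. In Vldlr this start site is an alternative one, and the stretch lies within the annotated span of the gene (chr19:27216480-27254231). A match of letters is a description, not a site.

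Chac1, which breaks down glutathione, was at 33.7 and 37.7 CPM at 24 h and at 110 and 118 CPM at 40 h, 3.19-fold higher (log2 1.68, SE 0.08, adjusted p = 4.3e-40). Vldlr, a lipoprotein receptor, went from 7.36 and 7.75 CPM to 32.9 and 38.3 CPM, 4.70-fold (log2 2.23, SE 0.15), and Atf3, a factor of the ATF family (named, like Nupr1 and Pycr1, for its promoter, after the values were seen), from 1.94 and 2.58 CPM to 11.5 and 13.3 CPM (log2 2.45, SE 0.25). Nupr1, a stress-induced regulator, rose by 1.02 and Pycr1, the last enzyme of proline synthesis, by 0.65, from 28.6 and 33.6 CPM to 44.0 and 53.4 CPM. All 5 promoters with the composite belonged to genes that were called higher, and so were 12 genes of the list that lack the letters or a promoter in the table. With 17 of the 20 members higher, a link of the composite with the rise was not tested. Atf4 itself went from 343 and 357 CPM to 512 and 518 CPM, 1.47-fold (log2 0.56, SE 0.04). Trib3, a pseudokinase that feeds back on ATF4, rose from 53.6 and 58.4 CPM to 114 and 121 CPM (log2 1.07, SE 0.07), the secreted Stc2 by 1.59 and the alanine aminotransferase Gpt2 by 0.84. The 3 members that did not rise are also named after their values were seen. Asns, asparagine synthetase and a classical ATF4 target, stood at 470 and 469 CPM and then at 455 and 513 CPM (log2 0.04, SE 0.04), after a mean of 1270 CPM at 0 h. Cth (-0.35) and Ppp1r15a (-0.28) fell, and the second was not called by DESeq2 (adjusted p = 0.13) or without replicate 1 at 24 h (-0.22) or either replicate at 40 h (-0.26 and -0.27).

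Amino acid transporters rose for 15 and fell for 5 of 26 tested (median 0.44). Slc7a5, the light chain of the large neutral amino acid exchanger, went from 376 and 394 CPM to 559 and 592 CPM (log2 0.58, SE 0.04). Slc6a9, a glycine transporter, went from 17.5 and 19.8 CPM to 53 and 59.4 CPM (log2 1.59, SE 0.11), and Slc1a4, which carries alanine, serine and cysteine, from 68.2 and 68.4 CPM to 114 and 125 CPM (log2 0.80, SE 0.06). The glutamate transporter gene Slc1a3 rose by 1.28 and Slc16a10 by 3.28. The fall with the smallest adjusted p was that of Slc7a3, a cationic amino acid transporter, from 578 and 577 CPM to 333 and 352 CPM (log2 -0.75, SE 0.04), after a rise of 1.77 in the first 12 h. Summed over the list, the level was 3690 and 3670 CPM at 24 h and 3740 and 3910 CPM at 40 h, so the rises of many members and the falls of a few nearly offset each other.

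Genes of serine, glycine and folate metabolism were called higher for 8 and lower for 4 of 18 (median -0.01). The serine synthesis genes Psat1 (0.66, SE 0.04) and Psph (0.84, SE 0.07) and the mitochondrial folate enzyme gene Mthfd2 (0.90, SE 0.04) rose, Mthfd2 from 190 and 191 CPM to 347 and 361 CPM. Tdh, threonine dehydrogenase, on which naive mouse ES cells depend for glycine and acetyl-CoA, went from 251 CPM in both libraries to 80.3 and 72.0 CPM, 3.29-fold lower (log2 -1.72, SE 0.05). The glycine cleavage genes parted, Gldc with a rise of 0.71 and Amt with a fall of 0.99. Of 20 aminoacyl-tRNA synthetase genes, 13 rose and 2 fell (1 by DESeq2), with a median of 0.16. The largest of the named rises was that of Sars (0.61), followed by Gars (0.45), Cars (0.44), Nars (0.43), Lars (0.38) and Eprs (0.31). Genes of the unfolded protein response, which is set off by stress in the endoplasmic reticulum, did not rise as a group, with 4 of 13 higher and 7 lower (3 lower without replicate 2 at 24 h and 4 without replicate 2 at 40 h). Herpud1 rose by 0.96 (SE 0.09), Edem1 by 0.31 and Hsp90b1 by 0.17, while the factor gene Xbp1 (-0.69), the disulfide isomerase gene Pdia4 (-0.42) and Calr (-0.28) fell.

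**Figure D3:**
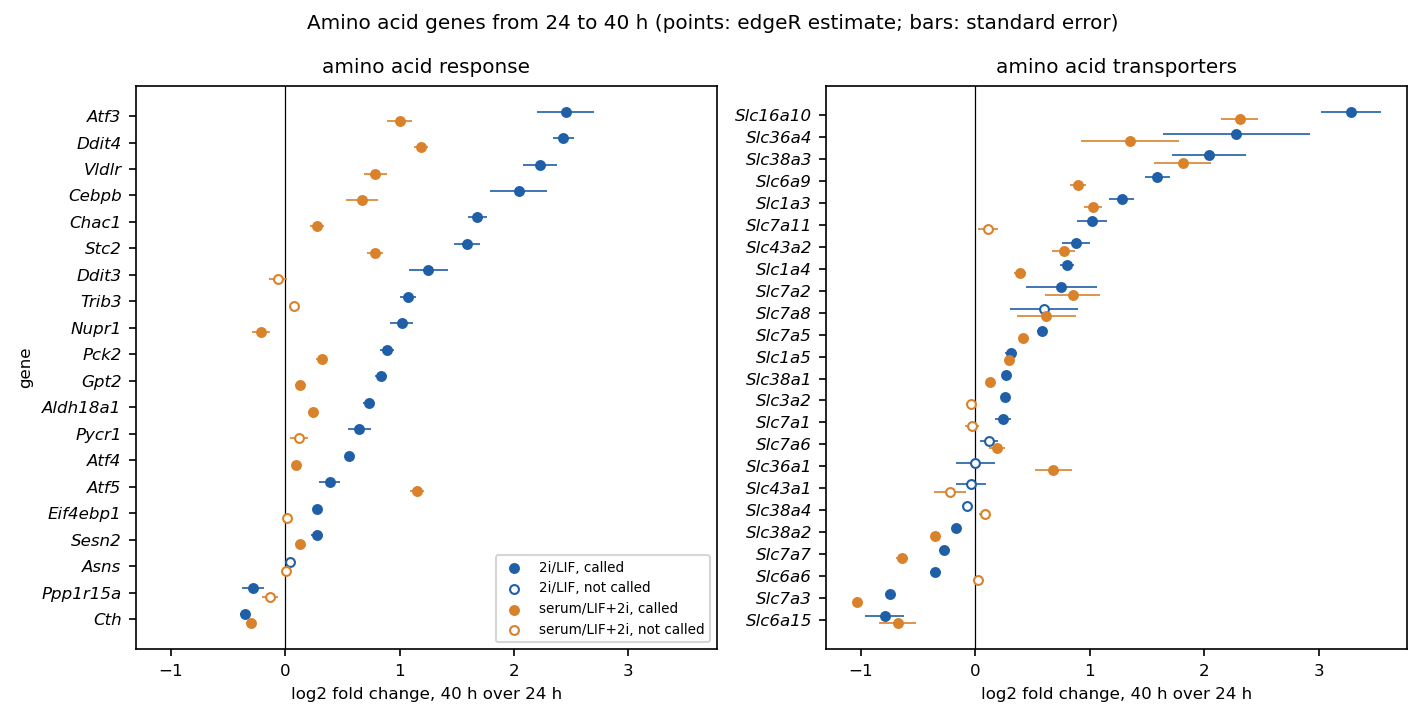
Log2 fold change from 24 to 40 h (x axis) for members of the amino acid response and transporter lists (y axis; tested members with a mean of at least 1 CPM over both 2i/LIF times), in 2i/LIF cells (blue) and serum/LIF+2i cells (orange); points are edgeR estimates, bars their standard error, filled points are called. In the 2i/LIF cells 17 of 20 response genes are called higher, with Chac1 at 1.68 against 0.28 in serum/LIF+2i.

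In energy metabolism, 14 of 22 glycolysis genes rose and 5 fell (median 0.27), and the summed level went from 8370 and 8250 CPM to 11300 and 10800 CPM. Ldha, which reduces pyruvate to lactate (chr7:46842274-46855627), went from 512 and 520 CPM to 1390 and 1290 CPM, 2.60-fold (log2 1.38, SE 0.04, adjusted p = 4.2e-63). Pfkl, the liver form of phosphofructokinase, rose by 1.04 (SE 0.05), while the platelet form Pfkp fell by 1.03 (SE 0.05). The glucose transporters also exchanged places. Slc2a1 went from 195 and 197 CPM to 468 and 455 CPM, whereas Slc2a3 went from 601 and 593 CPM to 330 and 336 CPM. Of 20 nuclear genes for oxidative phosphorylation, 8 fell by edgeR and none rose, also at an unadjusted p under 0.05 or by DESeq2. The count of falls was 4 by DESeq2, with library size as the only scaling, or without replicate 1 at 24 h, and 5 without replicate 2 of either time. Their median was -0.11, and the largest named fall was that of Cox5a (-0.48, SE 0.05). Ribosomal protein genes barely moved (median 0.05). Of 21, 4 were higher and 2 lower (1 by DESeq2), beside 22.2% and 24.5% of all genes tested. That split depended on scaling, with 7 higher under DESeq2 size factors and 10 with library size only, and 2 higher without replicate 1 at 40 h.

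Cholesterol synthesis genes were called higher for 13 and lower for 6 of 25 (median 0.13). Lss (0.39), Fdps (0.35), Dhcr7 (0.33) and the master regulator gene Srebf2 (0.24) rose modestly. Ebp, a sterol isomerase gene, went from 52.2 and 55.0 CPM to 19.0 and 17.8 CPM, 2.90-fold lower (log2 -1.54, SE 0.10). Lysosomal genes fell more often than they rose, 17 against 7 of 33 (median -0.20). Manba, lysosomal beta-mannosidase, went from 293 and 303 CPM to 59.2 and 61.0 CPM, 4.96-fold lower (log2 -2.31, SE 0.05). Glb1 (-0.83), Grn (-0.78) and Psap (-0.43) fell, and Gusb, beta-glucuronidase, rose by 0.83. In the first 12 h, 28 of the 33 had fallen.

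Of 20 G1 cyclins, cyclin-dependent kinases, inhibitors and Myc genes, 8 fell and 1 rose (median -0.19). All 3 D cyclins fell: Ccnd2 from 30.3 and 27.7 CPM to 14.2 and 9.65 CPM (log2 -1.27, SE 0.14), Ccnd3 by 1.11 and Ccnd1 by 0.43. Cdk2 (-0.32) and the pocket protein gene Rbl1 (-0.40) fell, and Mycl rose by 0.52. Among 11 genes of p53 and its targets, 3 rose and 3 fell, near the 22.2% and 24.5% of all genes tested. Trp53 went from 498 and 482 CPM to 307 and 288 CPM (log2 -0.72, SE 0.04) while its target Bbc3 (Puma) rose by 0.99 (SE 0.12).

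Epithelial genes rose for 10 and fell for 3 of 18 (median 0.38). Krt18, a keratin of simple epithelia, went from 3.19 and 4.41 CPM to 18.7 and 20.2 CPM, 5.13-fold (log2 2.36, SE 0.20). The claudin genes Cldn7 (2.28, SE 0.27) and Cldn6 (1.13, SE 0.12), the splicing regulator gene Esrp1 (0.97) and Epcam (0.60) rose, while Vim, the mesenchymal intermediate filament, went from 163 and 145 CPM to 79.8 and 78.1 CPM (log2 -0.97, SE 0.06). Of 15 matrix and integrin genes, 8 fell and 6 rose (median -0.51). The basement membrane linker genes Nid1 (6.04-fold, log2 -2.59, SE 0.07) and Nid2 (-1.13), Sparc (-1.63), fibronectin Fn1 (-0.99) and the laminin gamma chain gene Lamc1 (-0.72) fell. The laminin beta chain gene Lamb1 moved the other way, from 26.7 and 25.1 CPM to 102 and 97.4 CPM (log2 1.95, SE 0.09).

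**Figure D4:**
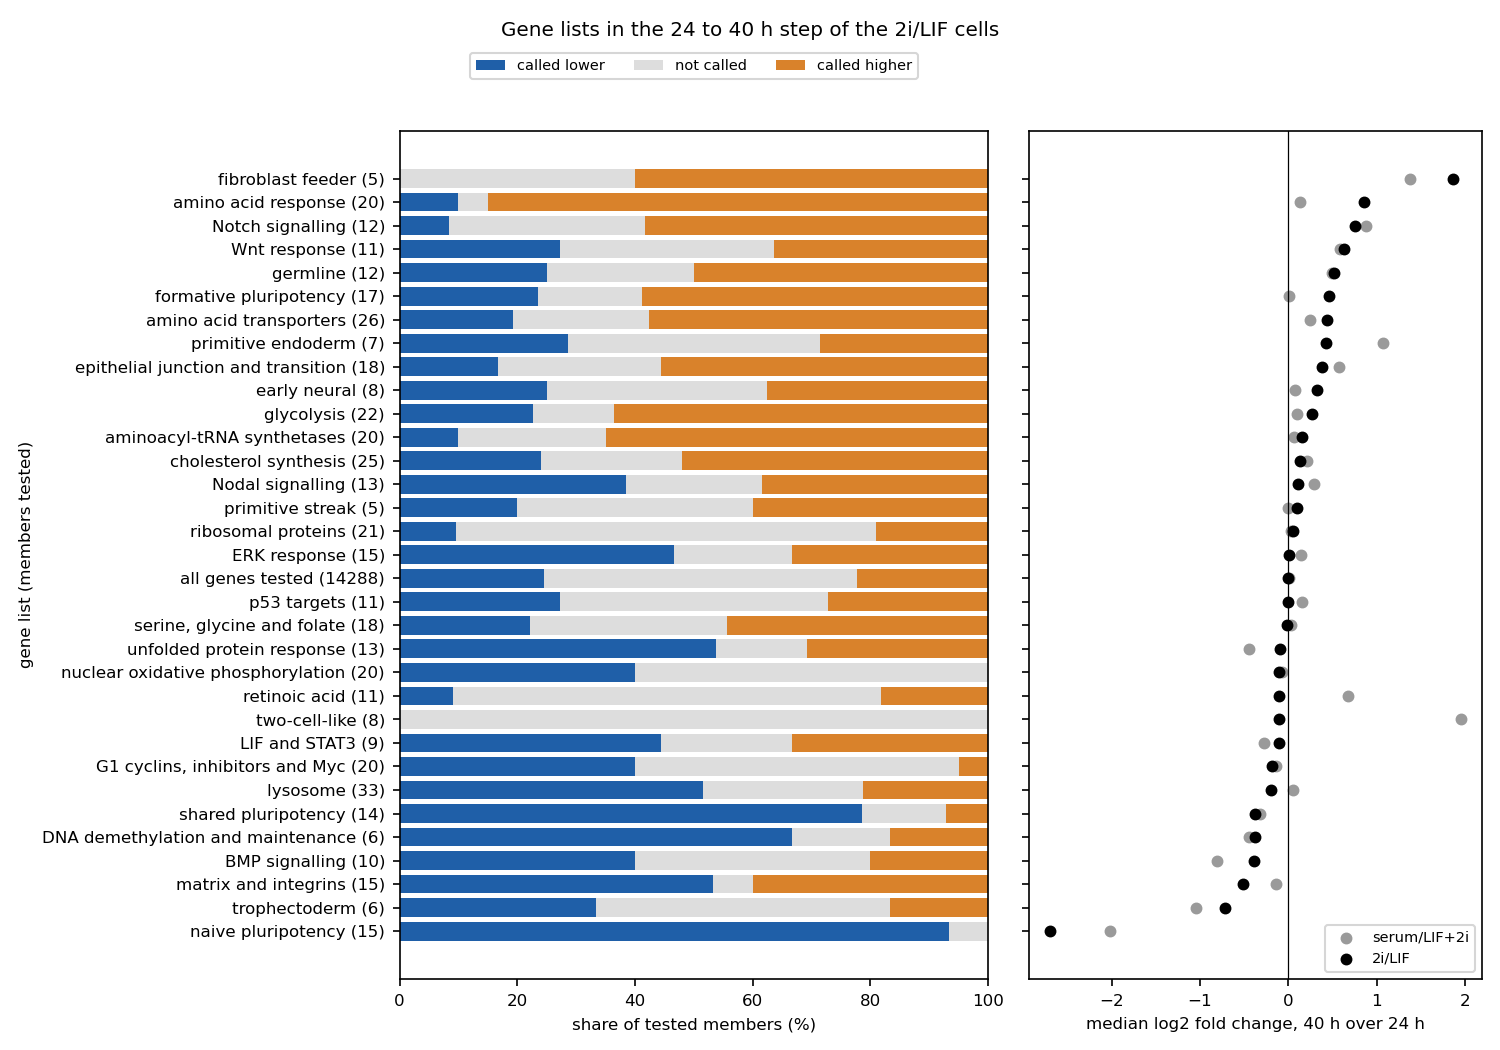
Left, the share of tested members (x axis, %) of each gene list (y axis, number tested in brackets) called lower, not called or called higher from 24 to 40 h in 2i/LIF cells; right, the median log2 fold change in 2i/LIF (black) and serum/LIF+2i (grey). The naive list has the lowest median (-2.70) and the amino acid response list 17 of 20 members called higher, beside 22.2% of all genes tested.

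In the serum/LIF+2i cells, the same interval had 7220 called genes (50.5%), 3704 higher (25.9%) and 3516 lower (24.6%). Both steps were called in the same direction for 2304 rising genes, 72.5% of the rises in 2i/LIF and 62.2% of the rises in the other medium, and for 2405 falling genes (68.8% and 68.4%). Opposite calls were found for 142 genes, 82 that fell in 2i/LIF and rose in serum/LIF+2i and 60 with the reverse. Across 14288 genes the log2 changes had a Pearson correlation of 0.755 and a Spearman correlation of 0.707, given as a description. The difference of the step between the media was called for 1743 genes (12.2%), for 804 with a more positive (5.63%) and for 939 with a more negative change (6.57%) in 2i/LIF.

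Otx2 had the difference with the smallest SE among the 8 most positive ones. It stayed near its 24 h level in 2i/LIF, but went from 94.6 and 90.8 CPM to 11.3 and 9.29 CPM in serum/LIF+2i, so that its fall was smaller in 2i/LIF by 2.78 (SE 0.12, adjusted p = 5.5e-40). Fgf5 rose in 2i/LIF and fell in serum/LIF+2i (-0.98, difference 1.60, SE 0.31), and so did Dnmt3a (0.46 against -0.22, difference 0.68, SE 0.05). The difference was called for 11 of the 17 formative genes, with 9 more positive in 2i/LIF. Plcd1, a phospholipase C gene, was at 17.2 and 14.6 CPM and then at 23.2 and 19.3 CPM in 2i/LIF, while it went from 18.4 and 20.1 CPM to 4.74 and 5.42 CPM in serum/LIF+2i (difference 2.34, SE 0.21). Its rise in 2i/LIF (0.42) was not called by DESeq2, or without replicate 2 at 24 h (0.32) or replicate 1 at 40 h (0.29). Kif1a (2.41), Tmem59l (2.80) and Fut1 (2.23) had larger rises in 2i/LIF from a lower 24 h level: Kif1a was at 4.20 and 5.40 CPM at 24 h and at 40.8 and 36.4 CPM at 40 h in serum/LIF+2i. Mean levels at 40 h were 12 CPM in 2i/LIF and 10.5 CPM in serum/LIF+2i for Tmem59l and 12.5 and 17.6 CPM for Fut1, whereas at 24 h all 3 genes were lower in 2i/LIF. Trim66 (2.17), the endoplasmic reticulum gene Derl3 (2.01) and A730036I17Rik (2.18) complete the 8 most positive ones. A730036I17Rik was not called without replicate 1 at 40 h in 2i/LIF (1.77).

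Naive genes parted between the media, with 6 more negative in 2i/LIF and 3 more positive. Klf2 went from 84.7 and 78.9 CPM to 33.4 and 32.9 CPM in 2i/LIF, but stood at 47.4 and 48.9 CPM and then 51.1 and 49.0 CPM in serum/LIF+2i, a difference of -1.36 (SE 0.11, adjusted p = 1.1e-19). Tbx3 (-1.58), Nr5a2 (-1.15), Tfcp2l1 (-0.68) and Nanog (-0.43) fell further in 2i/LIF, while Esrrb (0.82), Nr0b1 (0.77) and Fgf4 (0.48) fell further in serum/LIF+2i. Dppa3 rose in serum/LIF+2i (1.31) and the difference was -1.20. Among the most negative differences were those of Fzd10 (-2.14), Zscan4c (-2.07), the ectonucleotidase gene Nt5e (-1.94), Cnpy1 (-1.85), Gm5039 (-1.81), Wnt8a (-1.81) and Sp8 (-1.76). Fzd10, a Wnt receptor, went from 10.7 and 10.8 CPM to 4.88 and 2.99 CPM in 2i/LIF and from 4.42 and 2.96 CPM to 6.89 and 5.03 CPM in serum/LIF+2i. Two-cell-like genes had a more negative change in 2i/LIF for 6 of 8 tested, where all 8 rose in serum/LIF+2i and none was called in 2i/LIF.

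The amino acid response was the list with the highest share of called differences, 16 of 20, of which 15 were more positive in 2i/LIF. Chac1 was at 106 and 105 CPM at 24 h and at 134 and 121 CPM at 40 h in serum/LIF+2i, so its change there was 0.28 against 1.68 in 2i/LIF (difference 1.40, SE 0.10, adjusted p = 5.1e-24). Trib3 was at 189 and 184 CPM and then at 201 and 194 CPM in serum/LIF+2i (difference 0.99, SE 0.08), and Atf4 at 480 and 488 CPM and then at 524 and 516 CPM (difference 0.45, SE 0.05). For Chac1 and Atf4 the 40 h levels in 2i/LIF approached those of serum/LIF+2i, where they were already high at 24 h, whereas Trib3 remained lower. Herpud1 rose in 2i/LIF and fell in serum/LIF+2i (-0.65), a difference of 1.61 (SE 0.11). Of the 13 unfolded protein response genes, 9 had a more positive change in 2i/LIF and none a more negative one. In serum/LIF+2i, 12 of the 13 fell and none rose (median -0.45), against 7 lower and 4 higher in 2i/LIF (median -0.09). Their summed level in serum/LIF+2i was 4340 and 4510 CPM at 24 h and 3410 and 3480 CPM at 40 h. In 2i/LIF it was 3160 and 3220 CPM and then 3080 and 3040 CPM. Ldha rose more in 2i/LIF (difference 0.80, SE 0.05), while for Slc2a1 the difference was not called (-0.10, SE 0.06). Lysosomal genes had a more negative change in 2i/LIF for 14 of 33 and a more positive one for 2.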

How the data were processed

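RNA-seq of mouse ES cells gave 16 libraries, 2 in each of 8 groups by maintenance medium and hours of exit. The authors deposited a table of raw counts per gene. TRIzol was used for RNA and a stranded mRNA kit for the libraries, per the labels' protocols. The submitters' processing notes name fastp, STAR, featureCounts and mm10, without versions. The annotation and strand setting are not given in the sources used here. Replicates were not pooled.

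Counts were analysed as deposited with edgeR 4.0.16 in R 4.3.3: filterByExpr (minimum count 10, minimum total 15), TMM scaling, 1 coefficient per group over all 16 libraries (8 residual degrees of freedom), and the two-sided quasi-likelihood F test with Benjamini-Hochberg adjustment over 14288 genes. SEs were derived from the F statistic. Genes were called at an adjusted p under 0.05. There were 6 contrasts. Columns were matched to samples by their titles. The 12 rises and 12 falls named had a mean of at least 5 CPM, and lists other than the pluripotency lists gave at most 6 names each, by lowest adjusted p, with exceptions stated; some genes that this rule selects are not reported here. For the difference between media the 8 most positive and 8 most negative genes of at least 5 CPM are named. Further named genes were the 6 of each order among genes called in opposite directions in both intervals, and the 6 of each kind with at most 3 counts in both libraries of 1 time and the highest level at the other. Members and gene lists were chosen with earlier results of these data known.

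Ratios of such genes carry 95% counting intervals. Genes at 0 were compared with a floor of 3 counts per library. Alternatives were DESeq2 1.42.0, other scalings, filters and thresholds, fewer libraries in the fit, a replicate block, and leaving out each library. In simulated data with 200 changed genes, the test called 75% of them, with 12 unchanged genes called. The share called was 47.1% at an absolute log2 change of 0.5, 81.4% at 1 and 97.2% at 2. Only 200 of 14288 genes were changed there, whereas 6676 were called in the data. The threshold on the unadjusted p was therefore stricter in the simulation, and these shares do not measure how many real changes were missed. Genes not called may still hold small changes. Promoters came from RefSeq sequence of GRCm38.p6, for 404 of the 559 listed or named genes.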

Additional observations from a re-analysis of the deposited data

Results flagged for a closer look

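For 1743 genes the 24 to 40 h change was not the same in both media when the difference was itself tested. For 6468 genes it differed from the change in the first 12 h of exit, an interval of 12 h against 16 h. Both counts are adjusted over all 14288 genes tested by edgeR's quasi-likelihood test. Groups of 2 libraries are too small for a check on single samples that stand apart.

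Among the genes named, all of at least 5 CPM, the change was more positive in 2i/LIF, on the log2 scale, for Tmem59l (2.80), Otx2 (2.78), Kif1a (2.41), Plcd1 (2.34), Fut1 (2.23), A730036I17Rik (2.18), Trim66 (2.17) and Derl3 (2.01). It was more negative for Fzd10 (-2.14), Zscan4c (-2.07), Nt5e (-1.94), Cnpy1 (-1.85), Gm5039 (-1.81), Wnt8a (-1.81) and Sp8 (-1.76).

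At least 50% of the tested members of 7 lists were called in that difference, beside 12.2% of all genes tested. These were 9 of 15 naive, 11 of 17 formative, 6 of 8 two-cell-like, 7 of 13 Nodal, 16 of 20 amino acid response, 9 of 13 unfolded protein response and 9 of 15 matrix genes. The lists were chosen with earlier results of these data known. Maintenance medium and exit base cannot be told apart in any of them.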

How the results depend on the processing

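Among 513 listed or named genes under 15 alternatives, no gene called in the main fit reversed direction. Genes not called there were not checked for direction. The stricter adjusted p and the minimum fold change used the same fit, so neither could reverse a direction or add a call. Of 7621 values, 6983 kept their side of the threshold, 553 lost the call, 270 of them under a minimum absolute log2 fold change of 1, and 85 gained it. No scaling moved the median of all genes by over 0.1. DESeq2's Wald test called 4716 genes in the 24 to 40 h step in 2i/LIF, 2461 higher in serum/LIF+2i, 731 in the difference between media (346 more positive, 385 more negative) and 3307 from 12 to 24 h (1600 higher), with 735 genes that rose first and fell later and 425 with the reverse. A minimum absolute log2 fold change of 1 (glmTreat) left 778 in 2i/LIF (387 higher, 391 lower), 736 in serum/LIF+2i (377, 359), 831 in the first 12 h (359, 472), 1288 in the difference between intervals (552, 736), 240 from 12 to 24 h (126, 114) and 10 between media (7 more positive, 3 more negative, a share of 70% against 46.1%), and 55 and 30 genes with opposite calls. An adjusted p under 0.01 left 1031 between media (478, 553) and 457 that fell first and rose later. The cause of these shifts was not tested. Without single libraries the step in 2i/LIF had 5359 to 5667 genes and the difference between media 1246 to 1433. The count more negative in 2i/LIF was 598 to 749, with 598 without replicate 1 at 24 h in 2i/LIF, and 617 and 608 without replicate 1 at 24 h and at 40 h in serum/LIF+2i, against 939. A left-out library leaves a group of 1, assumed to vary like the others.

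No pairing of libraries by replicate number was seen: deviations of same-numbered libraries correlated between -0.023 and 0.033 over 28 pairs of groups. Counting noise in low genes enters these values, so they cannot show whether same-numbered libraries shared a culture. A replicate block gave 6687 genes in the step, of which 6655 were shared with the fit without it, in the same direction. Depth limits the genes at 3 counts or fewer, whose ratios have wide intervals.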
